A study of Huso dauricus with 9 samples.

Results

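PSMB8, PSMB9, TAP1, TAP2, B2M and IRF1 are 6 genes of the pathway that makes and loads peptides for MHC class I, and their transcripts were followed in the gut of kaluga sturgeon (Huso dauricus) after release into a river. A transcript was taken as a member where its Swiss-Prot gene name, its Swiss-Prot entry name or its KEGG gene name was one of these symbols. This gave 12 of the 59331 transcripts in the deposited table. For each gene the transcript with the highest mean stood as the lead, so there were 6 leads, and all 6 passed the filter on low values, as did 10 of the 12 transcripts. The leads and their tests follow the fish at day 0 (Ori), day 14 (D14FL) and day 30 (D30FL) of stock enhancement, with 3 fish and 3 libraries at each time. Different fish were recaptured each time, and gut tissue was taken from each fish. Genotype, age and sex were not stated in the labels. No hatchery-kept fish of the later dates are among the groups, and no batch is labelled, so time in the river, calendar date, food, growth and any batch cannot be told apart. Fish of day 7, which the design text also mentions, were not analysed here.

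The proteasome is the barrel-shaped protease that cuts cell proteins into peptides. As worked out in mammals, interferons make cells swap its constitutive catalytic subunits for inducible ones, and PSMB8 takes the place of PSMB5 while PSMB9 takes the place of PSMB6, which gives the immunoproteasome. TAP1 and TAP2 together form the pump that carries peptides into the endoplasmic reticulum, B2M is the light chain of class I molecules, and IRF1 is a transcription factor that interferon gamma induces and that acts on the promoters of several of the other genes. In gut, epithelial cells and leukocytes both express this pathway.

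Transcript levels are in FPKM, that is, sequenced fragments normalised to transcript length and to the size of the library, and they sum to between 810895 and 929953 per library. Read depth is unknown, so no detection limit is given and an exact 0 is described as listed at 0. Of 18 gut epithelium markers, 12 were found and all 12 had values in the tested range, among them FABP2, the fatty acid binding protein of enterocytes, at 302.5 to 4693 FPKM. Tests were made with limma on log2(FPKM + 1) over 54200 transcripts, with Benjamini-Hochberg adjusted p under 0.05 as a call. Each log2 change is given with its SE. Over all tested transcripts, the log2 change had a median of 0.38 for D14FL against Ori and 0.37 for D30FL against Ori, and log2 changes below are relative to that median, while p-values belong to the change before it is subtracted. Calls numbered 1176 higher and 325 lower for D14FL against Ori and 1349 higher and 397 lower for D30FL against Ori. With libraries scaled by the median of ratios, the splits were 435 higher and 646 lower, and 534 higher and 709 lower. The scaling factors, by which values are divided, were 0.709, 0.861 and 0.969 in Ori 1, 2 and 3. They lay between 1.03 and 1.28 in the later libraries. Whether groups overlap is judged below on FPKM as deposited, without scaling or subtraction of the median, and can change with scaling.

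Among the 6 leads, PSMB9 fell at day 30, and it was the single lead called in any comparison. The leads of PSMB8, PSMB9 and IRF1 lay lower in every fish after release than in any fish at day 0, whereas those of TAP1, TAP2 and B2M overlapped at day 14. In D14FL against Ori, limma called 0 of 6 leads, beside 2.77% of all tested transcripts in either direction and 0.600% lower, and 3 of 6 had an unadjusted p under 0.05, all lower. Over all tested transcripts, an unadjusted p under 0.05 was reached by 4.64% as lower and 18.5% as higher at day 14, and by 5.08% as lower and 18.9% as higher at day 30, which is the background for each count at that threshold below. In D30FL against Ori, 1 of 6 was called, as lower, beside 3.22% of all tested transcripts in either direction and 0.732% lower. Groups did not overlap, with the later group lower, for 3 of 6 leads at day 14 and 4 of 6 at day 30, beside 6.70% and 6.14% of all tested transcripts. The median relative log2 change of the leads was -0.99 at day 14 and -1.39 at day 30, against 0 by construction for all transcripts, and 11.3% and 5.39% of all tested transcripts lay below those medians. The 6 genes were chosen with earlier results of these data known, so these counts and medians are descriptions.

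**Figure D1:**
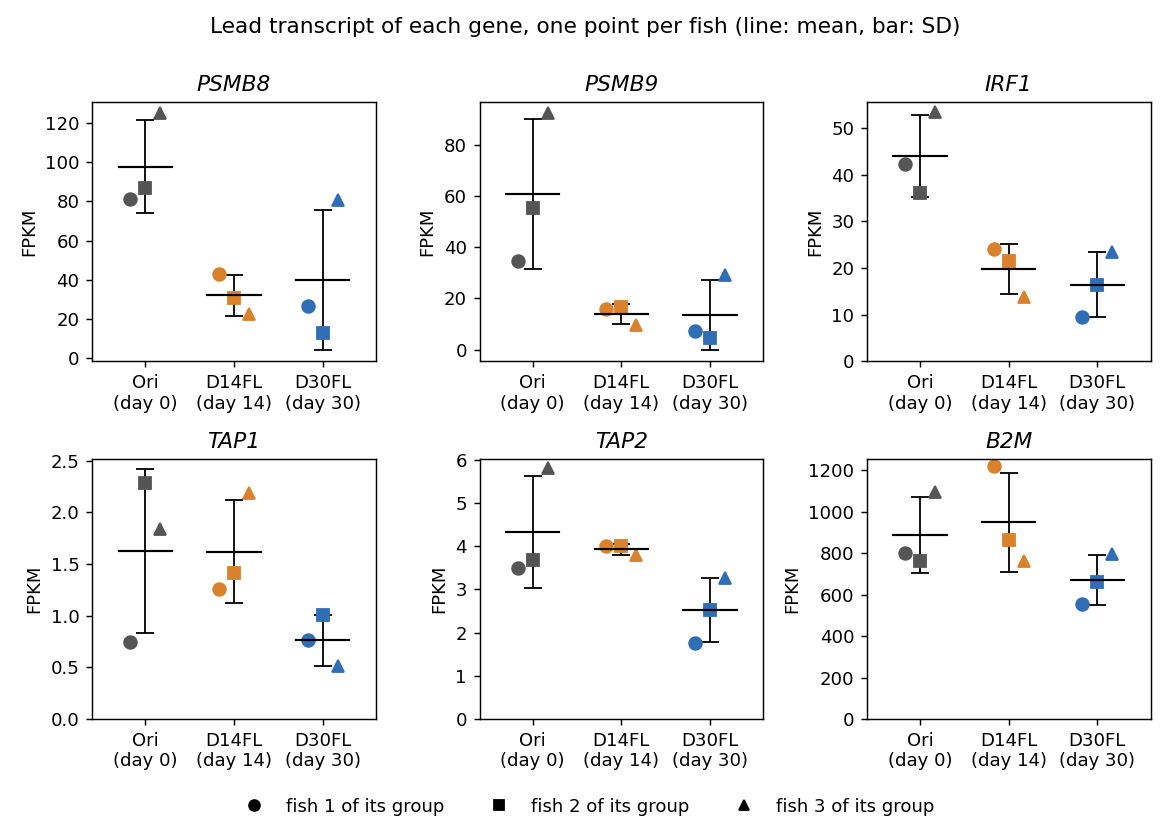
FPKM of the lead transcript of each gene (y axis, a linear scale of its own in each panel) in Ori, D14FL and D30FL (x axis), with 1 point per fish, a line at the group mean and a bar of 1 SD. On FPKM as deposited, without scaling of libraries, PSMB8, PSMB9 and IRF1 are lower in all 6 later fish than in all 3 Ori fish. On the same scale, TAP1 and B2M overlap with Ori at both later times.

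PSMB8, the inducible counterpart of PSMB5, was represented by 1 transcript, matched by its KEGG name and carrying the older name LMP7 in Swiss-Prot. It stood at 81.4, 86.9 and 125 FPKM in Ori 1, 2 and 3, at 42.9, 30.7 and 22.5 FPKM in D14FL 1, 2 and 3, and at 26.7, 13.1 and 80.6 FPKM in D30FL 1, 2 and 3. All later fish were below the lowest Ori fish, but D30FL 3 was below it by less than 1 FPKM and the other 5 by much more. Means were 32.0 ± 10.3 FPKM in D14FL and 40.1 ± 35.7 FPKM in D30FL, against 97.7 ± 23.7 FPKM in Ori (SD, n = 3 each). PSMB8 was not called at either time in limma, with relative log2 changes of -1.98 (SE 0.53, adjusted p = 0.114) at day 14 and -1.98 (SE 0.53, adjusted p = 0.105) at day 30. Without D30FL 3, the same changes were -1.98 (adjusted p = 0.0365) and -2.74 (adjusted p = 0.0125), both calls. Of 22 alternatives, however, 18 gave no call at day 14 and 20 gave none at day 30, with an adjusted p of up to 0.269 and 0.286 in limma. In bulk tissue, fewer cells that express a gene and less of its RNA per cell cannot be told apart, here or for the other members.

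PSMB9, the inducible counterpart of PSMB6, had 2 transcripts, and the lead showed the lowest values of the later fish relative to Ori among the 6 genes. The lead stood at 34.7, 55.3 and 92.2 FPKM in Ori 1, 2 and 3, at 15.99, 16.5 and 9.58 FPKM in D14FL 1, 2 and 3, and at 7.15, 4.45 and 29.2 FPKM in D30FL 1, 2 and 3. All 6 later fish were below the lowest Ori fish, and D30FL 3 came nearest to it. The mean was 13.6 ± 13.6 FPKM in D30FL against 60.7 ± 29.1 FPKM in Ori (SD, n = 3 each), and the relative log2 change of -2.75 (SE 0.57) was called in limma at an adjusted p of 0.0477. For D14FL, the mean was 14.0 ± 3.85 FPKM (SD, n = 3), and the relative log2 change of -2.35 (SE 0.57, adjusted p = 0.0834) was not called. The day 30 call lies close to the threshold: of 22 alternatives, 15 gave no call, among them leaving out any 1 library other than D30FL 3 (adjusted p between 0.055 and 0.157), and without D30FL 3 the adjusted p was 0.00691.

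The second PSMB9 transcript, whose best protein match is to another fish species, was less abundant in 7 of the 9 libraries. Its values were 17.1, 34.3 and 52.4 FPKM in Ori 1, 2 and 3, 15.7, 9.29 and 12.3 FPKM in D14FL 1, 2 and 3, and 6.73, 2.65 and 35.7 FPKM in D30FL 1, 2 and 3. D14FL and Ori did not overlap, with D14FL lower, whereas D30FL 3 lay above 2 of the 3 Ori fish. The relative log2 changes of this transcript were -1.68 (SE 0.69, adjusted p = 0.276) at day 14 and -2.05 (SE 0.69, adjusted p = 0.17) at day 30, neither a call in limma. Summed over both transcripts, PSMB9 averaged 28.6 ± 31.6 FPKM in D30FL against 95.3 ± 46.6 FPKM in Ori (SD, n = 3 each), and the relative log2 change of the sum was -2.52 (adjusted p = 0.0799), which was not a call. The sum ran from 7.10 to 64.9 FPKM in D30FL and from 51.8 to 144.6 FPKM in Ori, so these groups overlapped.

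Whether the inducible subunits moved apart from the constitutive ones was asked by the ratio of each to its counterpart within a library, a measure that the scaling of a library leaves nearly as it is. Each subunit was taken by its transcript with the highest mean, so the second PSMB9 transcript is left out. The percentages are of the FPKM as deposited, and the tested log2 ratios have 1 FPKM added to both subunits. PSMB9 amounted to 37.4%, 64.0% and 95.6% of PSMB6 in Ori 1, 2 and 3, to 21.6%, 25.1% and 11.1% in D14FL 1, 2 and 3, and to 8.77%, 5.65% and 34.0% in D30FL 1, 2 and 3. By this lead transcript, all 6 later fish lay below the lowest Ori fish. The mean log2 ratio was -2.64 ± 0.91 in the 6 later fish against -0.70 ± 0.67 in the 3 Ori fish (SD), a difference of -1.94. A two-sided exact permutation test gave p = 0.0238, the smallest that 6 against 3 fish allow, and 0.0476 after adjustment over the 2 ratios computed. The members were chosen with earlier results of these data known, so the p-values of both ratios are not independent evidence.

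PSMB8 amounted to 180%, 224% and 261% of PSMB5 in Ori 1, 2 and 3, to 182%, 91.6% and 34.4% in D14FL 1, 2 and 3, and to 46.2%, 74.4% and 163% in D30FL 1, 2 and 3. Of the 6 later fish, 5 were below the lowest Ori fish, and D14FL 1 was level with it. The mean log2 ratio was -0.26 ± 0.94 in the 6 later fish against 1.11 ± 0.27 in the 3 Ori fish (SD), a difference of -1.38 with p = 0.0476 in the exact permutation test, before and after adjustment. With the same adjustment over the 2 ratios, each ratio passed in 2 of 11 alternatives, and before adjustment the PSMB9 to PSMB6 ratio did so in 8 of 11 and the PSMB8 to PSMB5 ratio in 2 of 11. With 3 fish against 3, an exact permutation test of either ratio could not go below p = 0.1. PSMB10, the third inducible subunit, was not found by its symbol, so its ratio to PSMB7 was not computed. The plan had been to adjust over 3 ratios, and the adjusted values here, over 2, lie just under 0.05.

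**Figure D2:**
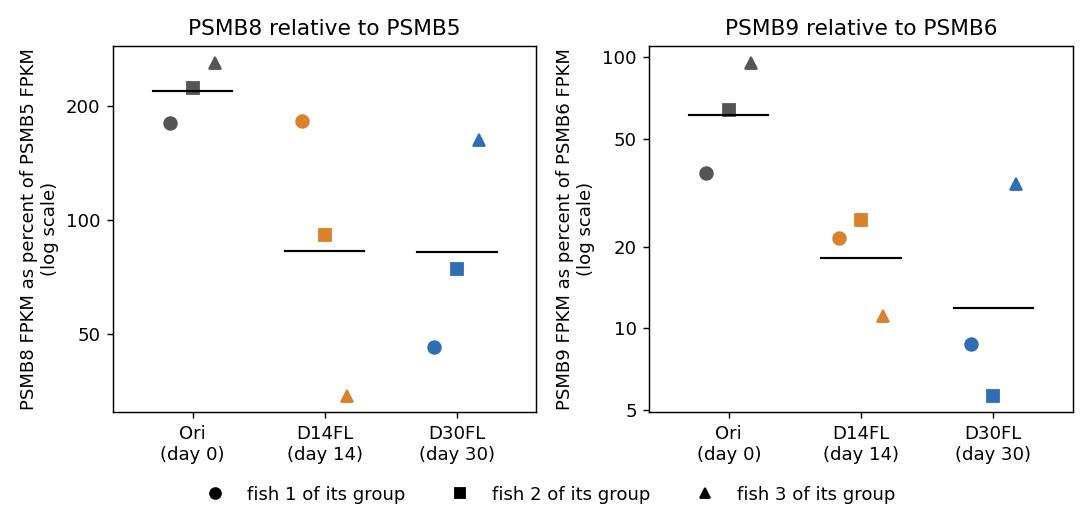
FPKM of PSMB8 as a percent of PSMB5 (left) and of PSMB9 as a percent of PSMB6 (right) in each library, on log y axes, for Ori, D14FL and D30FL, with 1 point per fish and a line at the geometric mean. Each subunit is shown by its transcript with the highest mean, without the second PSMB9 transcript. The PSMB9 to PSMB6 values of the 6 later fish run between 5.65% and 34.0%, all below the lowest Ori value of 37.4%.

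The constitutive subunits themselves were not called, although PSMB6 and PSMB7 lay lower in all 6 later fish than in any Ori fish. That was 2 of 3 subunits at each time, beside 6.70% of all tested transcripts at day 14 and 6.14% at day 30. PSMB6 stood at 65.7 to 86.0 FPKM in the later fish against 86.5 to 96.4 FPKM in Ori, and PSMB7 at 32.1 to 95.1 FPKM against 96.3 to 138 FPKM, so in both cases the nearest fish were less than 2 FPKM apart. PSMB5 averaged 41.6 ± 21.2 FPKM in D30FL against 43.9 ± 4.67 FPKM in Ori, and PSMB6 82.1 ± 3.56 against 91.9 ± 5.02 FPKM (SD, n = 3 each). PSMB7 had the largest change of the 3, with a relative log2 change of -1.47 (SE 0.40, adjusted p = 0.127) at day 30. In limma, 0 of 3 were called at either time. An unadjusted p under 0.05 was reached by 0 of 3 at day 14 and by 1 of 3, lower, at day 30. Of the 11 structural subunits of the core, 0 were called. The medians of their relative log2 changes were -0.66 at day 14 and -0.55 at day 30. An unadjusted p under 0.05 was reached by 1 of 11, lower, at day 14 and by 0 of 11 at day 30. Of the 17 subunits of the regulatory cap, 0 were called, with medians of -0.35 and -0.12 and 0 of 17 at an unadjusted p under 0.05 at either time. Differences between these lists and the inducible subunits were tested only through the 2 ratios above.

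The proteasome activator list of 5 symbols had 4 found and tested, 1 of them an assembly factor and not an activator, and 0 called in limma. At an unadjusted p under 0.05 there were 0 of 4 at day 14, and 1 lower and 1 higher at day 30. PSME1 and PSME2 encode the interferon-inducible activator that caps the immunoproteasome, and PSME3 encodes a nuclear activator. PSME2 stood at 33.2, 22.1 and 92.6 FPKM in D30FL 1, 2 and 3, against 68.6, 80.4 and 122 FPKM in Ori 1, 2 and 3. D30FL 3 overlapped the Ori range and the other 2 fish lay below it, the same order of fish as for PSMB8. Relative log2 changes at day 30 were -1.45 (SE 0.45, adjusted p = 0.176) for PSME2, -1.19 (SE 0.41, adjusted p = 0.244) for PSME1 and 0.76 (SE 0.36, adjusted p = 0.0913) for PSME3.

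IRF1 had a single transcript, matched best to the IRF1 protein of the Yangtze sturgeon (Acipenser dabryanus). It stood at 42.4, 36.1 and 53.5 FPKM in Ori 1, 2 and 3, at 24.2, 21.6 and 13.8 FPKM in D14FL 1, 2 and 3, and at 9.45, 16.4 and 23.4 FPKM in D30FL 1, 2 and 3. The 6 later fish lay below the 3 Ori fish with a clear gap, and D14FL and D30FL overlapped. Means were 19.9 ± 5.38 FPKM in D14FL and 16.4 ± 6.99 FPKM in D30FL, against 44.0 ± 8.79 FPKM in Ori (SD, n = 3 each). The relative log2 change was -1.51 (SE 0.37, adjusted p = 0.108) at day 14 and -1.81 (SE 0.37, adjusted p = 0.0549) at day 30, so neither passed in limma. Of 22 alternatives, 17 gave no call at day 30, with an adjusted p of up to 0.187 in limma, and 5 gave one. Among those 5, the change was -1.94 (adjusted p = 0.0336) with libraries scaled by the median of ratios. It was -1.69 (adjusted p = 0.0443) with quantile scaling and -2.17 (adjusted p = 0.0221) without D30FL 3. At day 14, none of the 22 gave a call.

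The rest of the IRF family gave no call either. Of 11 symbols in the IRF family list, 6 were found and tested and 0 were called in limma. An unadjusted p under 0.05 was reached by 1 of 6, higher, at day 14 and by 0 of 6 at day 30. Their median relative log2 change was 0.13 at day 14 and -0.19 at day 30. IRF2, which in mammals competes with IRF1 for the same promoter element, averaged 25.1 ± 4.43 FPKM in D14FL against 10.1 ± 4.29 FPKM in Ori (SD, n = 3 each), with the 3 D14FL fish above the 3 Ori fish and a relative log2 change of 0.90 (SE 0.45, adjusted p = 0.126). The difference between IRF1 and IRF2 was not tested.

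TAP1, one chain of the peptide transporter, was the scarcest member. Its lead stood at 0.742, 2.29 and 1.84 FPKM in Ori 1, 2 and 3, at 1.26, 1.41 and 2.19 FPKM in D14FL 1, 2 and 3, and at 0.760, 1.01 and 0.511 FPKM in D30FL 1, 2 and 3. D14FL lay inside the range of Ori, and D30FL overlapped Ori through Ori 1. Relative log2 changes of TAP1 were -0.35 (SE 0.40, adjusted p = 0.971) at day 14 and -0.91 (SE 0.40, adjusted p = 0.416) at day 30, on a scale that understates changes at such low values. The other 2 TAP1 transcripts reached FPKM of at least 1 in 1 and in 0 of the 9 libraries and were not tested, with values between 0 and 1.88 FPKM.

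TAP2, the partner chain, rested on 1 transcript with an uncertain name: KEGG and the non-redundant protein database call it TAP2, and its Swiss-Prot match is ABCB9, a related lysosomal peptide transporter. It stood at 3.50, 3.68 and 5.81 FPKM in Ori 1, 2 and 3, at 4.01, 3.99 and 3.79 FPKM in D14FL 1, 2 and 3, and at 1.77, 2.52 and 3.25 FPKM in D30FL 1, 2 and 3. The 3 D30FL fish were below all 6 earlier fish, while D14FL lay inside the Ori range. The relative log2 change of TAP2 was -0.47 (SE 0.35, adjusted p = 0.901) at day 14 and -0.97 (SE 0.35, adjusted p = 0.314) at day 30, neither a call in limma.

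B2M, the class I light chain, was the most abundant member by far. Its lead, matched best to the B2M protein of the Siberian sturgeon (Acipenser baerii), stood at 801, 764 and 1096 FPKM in Ori 1, 2 and 3, at 1219, 865 and 764 FPKM in D14FL 1, 2 and 3, and at 556, 662 and 793 FPKM in D30FL 1, 2 and 3. The 3 groups overlapped, and D14FL 1 was the highest of the 9 libraries. Relative log2 changes of the B2M lead were -0.30 (SE 0.34, adjusted p = 0.894) at day 14 and -0.77 (SE 0.34, adjusted p = 0.486) at day 30.

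A second B2M transcript with the same sturgeon protein as its match went the other way at day 14. It stood at 351, 282 and 212 FPKM in D14FL 1, 2 and 3, against 170, 92.2 and 104 FPKM in Ori 1, 2 and 3. On FPKM as deposited the 3 D14FL fish lay above the 3 Ori fish, an order that scaling of the libraries can change. The later group lay above Ori without overlap for 3 of the 10 tested member transcripts at day 14 and 2 of 10 at day 30, beside 27.8% and 20.8% of all tested transcripts. The relative log2 change of the second transcript was 0.84 (SE 0.35, adjusted p = 0.0777) at day 14 and 0.30 (SE 0.35, adjusted p = 0.252) at day 30, neither a call. Near-identical transcripts may share reads, so the split between these 2 transcripts is uncertain. Summed over its 4 transcripts, B2M averaged 1241 ± 306 FPKM in D14FL and 872 ± 124 FPKM in D30FL, against 1010 ± 175 FPKM in Ori (SD, n = 3 each), and both later groups overlapped Ori.

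A further 2 B2M transcripts matched mammalian proteins best and were the only member transcripts called higher. The one matched to chimpanzee stood at 2.66, 0.383 and 0 FPKM in Ori 1, 2 and 3, at 8.11, 6.61 and 7.25 FPKM in D14FL 1, 2 and 3, and at 7.99, 6.48 and 5.63 FPKM in D30FL 1, 2 and 3. It was called in limma with relative log2 changes of 1.89 (SE 0.46, adjusted p = 0.0307) at day 14 and 1.78 (SE 0.46, adjusted p = 0.0349) at day 30, and 10 of 20 and 12 of 20 alternatives gave no call. The one matched to mouse was listed at 0 in all 3 Ori libraries and stood at 2.79, 1.60 and 4.59 FPKM in D14FL 1, 2 and 3 and at 1.505, 1.03 and 2.37 FPKM in D30FL 1, 2 and 3. It was called at day 14 (adjusted p = 0.0351) and not at day 30 (adjusted p = 0.082), while 9 of 19 alternatives gave no call at day 14 and 3 of 19 gave one at day 30. These calls stand beside 2.17% and 2.49% of all tested transcripts called higher at the 2 times. Neither transcript would have passed the filter on low values by its Ori libraries alone, so these calls are descriptions. Over the whole table, 3929 to 6173 transcripts were listed at 0 in an Ori library, and 1857 to 3558 in a later one. In all, 978 transcripts matched mammalian proteins best, and the organism these 2 came from was not tested.

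Between the 2 later times, limma called 0 of the 6 leads, beside 0.00185% of all tested transcripts, and 0 had an unadjusted p under 0.05. All 6 relative log2 changes of D30FL against D14FL were below 0, and their median was -0.44. D30FL and D14FL did not overlap for 2 of 6 leads, TAP1 and TAP2, both lower in D30FL, beside 4.46% of all tested transcripts. For PSMB8, whose D30FL fish span from 13.1 to 80.6 FPKM, the change was -0.01 (SE 0.53, adjusted p = 1), and its sign turned in 8 of 22 alternatives.

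**Figure D3:**
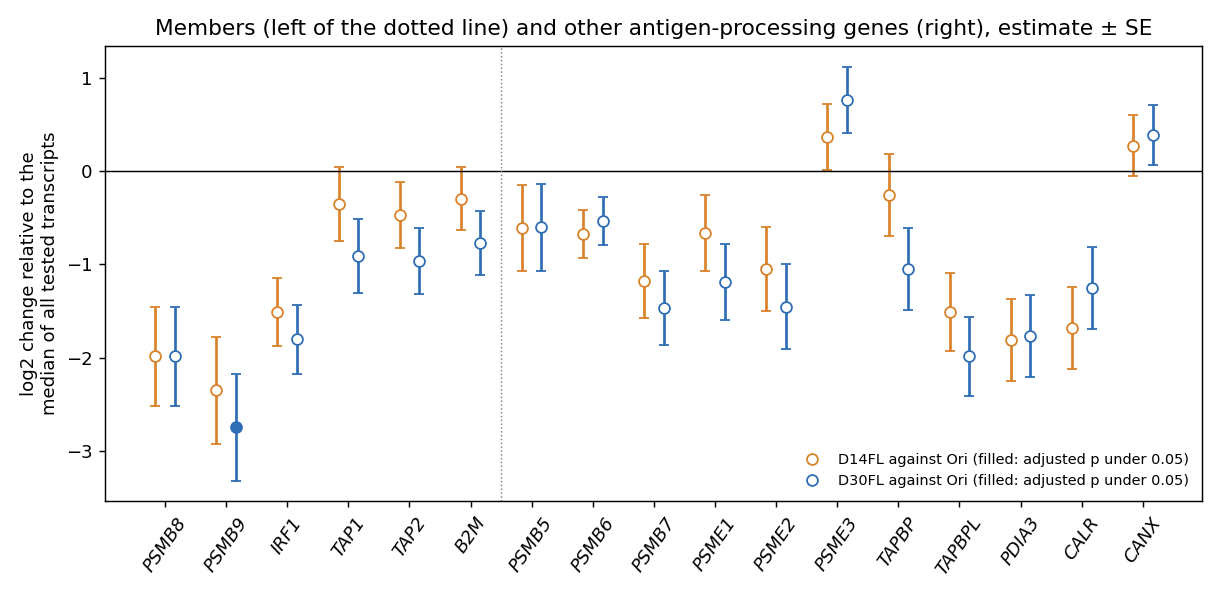
Relative log2 change (y axis) of the 6 leads and of 11 related genes (x axis) for D14FL against Ori and D30FL against Ori, with 1 SE as the bar. Filled points are calls at an adjusted p under 0.05, which here is PSMB9 at day 30, with -2.75.

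On the per-length FPKM scale, the mean level over 9 libraries ordered the leads as B2M at 836, PSMB8 at 56.6, PSMB9 at 29.4, IRF1 at 26.8, TAP2 at 3.59 and TAP1 at 1.33 FPKM. Among all tested transcripts, 0.244% had a higher mean than B2M, 3.74% than PSMB8, 7.48% than PSMB9, 8.23% than IRF1, 46.5% than TAP2 and 84.2% than TAP1. The pump subunits were therefore measured near or below the median tested transcript (3.24 FPKM) and the catalytic subunits far above it. The highest library was Ori 3 for PSMB8, PSMB9, IRF1 and TAP2, Ori 2 for TAP1 and D14FL 1 for B2M. Between highest and lowest library, levels differed 20.7-fold for PSMB9, 9.54-fold for PSMB8, 5.66-fold for IRF1, 4.48-fold for TAP1, 3.29-fold for TAP2 and 2.19-fold for B2M.

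PSMB8 and PSMB9 had the most alike profiles of any 2 leads. Likeness was taken as the distance between standardised log2(FPKM + 1) values over the 9 libraries, where 0 is the same profile and 1.41 is expected for unrelated ones. PSMB8 and PSMB9 were 0.27 apart, and of the 8755 named transcripts whose mean FPKM was 5 or more, only 10 were closer to PSMB8 and 8 closer to PSMB9. The median distance of those 8755 was 1.66 from PSMB8 and 1.65 from PSMB9. The PSMB8 lead exceeded the PSMB9 lead in every library, by 1.35-fold to 2.34-fold in Ori, 1.86-fold to 2.68-fold in D14FL and 2.76-fold to 3.74-fold in D30FL. This order holds for the leads only. Summed over both its transcripts, PSMB9 averaged 95.3 FPKM in Ori and reached 144.6 FPKM, against 97.7 and 124.8 FPKM for PSMB8. IRF1 was 0.45 from PSMB9 and 0.57 from PSMB8, with 40 and 141 named transcripts closer to IRF1. TAP2 and B2M were 0.55 apart, whereas TAP1 was at least 0.94 from every other lead. All profiles share the 9 libraries and 3 times, so these distances are descriptions.

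The named transcripts nearest in profile were of mixed kinds. For PSMB8 they were SLD5, a DNA replication protein (distance 0.23), LIMA1, an actin-binding protein (0.23), and the tumour suppressor p53 (0.24). For PSMB9 they were AGMAT, a mitochondrial agmatinase (0.12), a low-abundance transcript of the proteasome subunit PSMA6 (0.17) and HNRPA1, an RNA-binding protein (0.18). For IRF1 they were CCER1 (0.29), the transcription factor TFIID subunit TAF2E (0.31) and DTD2, a deacylase of charged transfer RNAs (0.31). For TAP2 they were PRPSAP2 (0.35), DHLAG, the class II invariant chain also called CD74 (0.37), and the gut chemokine CCL25 (0.37). For TAP1 they were MYH9 (0.44), MATR3 (0.47) and COQ9 (0.53), and for B2M CG15444 (0.31), PARG (0.33) and BTN (0.37). The names COQ9 and BTN are those of Swiss-Prot and differ from the non-redundant database names of the same transcripts.

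The other genes of class I peptide loading included members with large changes that did not pass. Of 16 symbols, 10 were found and tested and 0 were called in limma, with 3 lower and 1 higher at an unadjusted p under 0.05 at day 14, and 2 lower and 1 higher at day 30. The median of their relative log2 changes was -0.26 at day 14 and -0.35 at day 30. TAPBPL, which edits the peptides that class I molecules carry, stood at 8.1, 4.9 and 17.8 FPKM in D30FL 1, 2 and 3, against 31.0, 23.2 and 36.7 FPKM in Ori 1, 2 and 3. Its relative log2 change of -1.99 (SE 0.42, adjusted p = 0.0575) did not pass, although the groups did not overlap. PDIA3, the disulfide isomerase of the loading complex, stood at 68.3, 21.3 and 88.3 FPKM in D30FL 1, 2 and 3, against 130, 140 and 135 FPKM in Ori 1, 2 and 3, with a relative log2 change of -1.77 (SE 0.44, adjusted p = 0.0926). The lectin chaperone CALR had -1.68 (SE 0.44, adjusted p = 0.12) at day 14, while its membrane-bound relative CANX had 0.39 (SE 0.33, adjusted p = 0.185) at day 30. LNPEP, an aminopeptidase that trims peptides in endosomes, had 0.95 (SE 0.35, adjusted p = 0.0642) at day 14, with the 3 D14FL fish above the 3 Ori fish.

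Class I heavy chains, the partners of B2M, were not found by symbol and were collected from the protein names as 12 transcripts after the annotation had been seen. Limma called 0 of 12 at either time, with 3 of 12 higher at an unadjusted p under 0.05 at day 14 and 0 of 12 at day 30, and the medians of their relative log2 changes were 0.55 at day 14 and -0.36 at day 30. Their summed level was 1333 to 1953 FPKM in D14FL and 749 to 1578 FPKM in D30FL, against 658 to 1339 FPKM in Ori. The most abundant of them stood at 709.5, 576 and 463 FPKM in D14FL 1, 2 and 3, against 322, 288 and 495 FPKM in Ori 1, 2 and 3. D14FL 3 fell inside the Ori range and the other 2 D14FL fish lay above it.

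Genes of interferon gamma signalling, from receptor and kinases to induced targets, gave 1 call. Of 17 symbols of interferon gamma signalling, 10 were found and tested, 1 was called higher at day 30, and the medians of the relative log2 changes were 0.01 at day 14 and 0.05 at day 30. That 1 was SOCS3, a feedback inhibitor of cytokine signalling, which stood at 21.8, 38.6 and 9.3 FPKM in D30FL 1, 2 and 3, against 7.1, 3.5 and 3.9 FPKM in Ori 1, 2 and 3. SOCS3 rose with a relative log2 change of 1.53 (SE 0.47, adjusted p = 0.04996 in limma), and 16 of 21 alternatives gave no call. At day 14, 0 of 10 were called and 4 of 10 had an unadjusted p under 0.05, all higher. The list went both ways: at each time 5 of 10 lay below the median of all transcripts and 5 above. Relative log2 changes ran from -1.02 to 1.84 at day 14 and from -1.14 to 1.53 at day 30. D14FL lay wholly below Ori for 1 of 10 and wholly above for 4 of 10, beside 6.70% and 27.8% of all tested transcripts. IFNGR1, a chain of the interferon gamma receptor, had 1.84 (SE 0.66, adjusted p = 0.0872) at day 14, and the ligand IFNG was not found by its symbol.

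Ori 3 stood apart from Ori 1 and Ori 2 in interferon-response transcripts. RSAD2, an antiviral enzyme induced by interferon, was at 88.2 FPKM in Ori 3 and at 5.4 and 6.2 FPKM in Ori 1 and 2. Summed over the 10 tested genes of the type I interferon list, the level was 39.3, 43.6 and 201 FPKM in Ori 1, 2 and 3, 47.9 to 67.9 FPKM in D14FL and 42.7 to 62.4 FPKM in D30FL. Limma called 0 of 10 at either time, with 1 higher at an unadjusted p under 0.05 at day 14 and 2 lower and 1 higher at day 30. Among the later fish, D30FL 3 had 28.6 FPKM of the antiviral MX1, against 1.2 and 1.6 FPKM in D30FL 1 and 2, and the highest PSMB8 and PSMB9. The rest of that list did not follow MX1: the other 9 genes summed to 33.8 FPKM in D30FL 3, the lowest of its group, against 41.5 and 44.5 FPKM in D30FL 1 and 2. Without Ori 3, the relative log2 changes at day 30 were -1.86 for PSMB8, -2.46 for PSMB9 and -1.73 for IRF1. None was then a call in limma (adjusted p of 0.238, 0.138 and 0.15). PSMB8 and IRF1 were not calls with all fish either. The PSMB9 call was also lost in limma without Ori 1 (-3.00, adjusted p = 0.0828) and without Ori 2 (-2.79, adjusted p = 0.0929). The part of interferon-response transcripts in the member values was not tested.

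**Figure D4:**
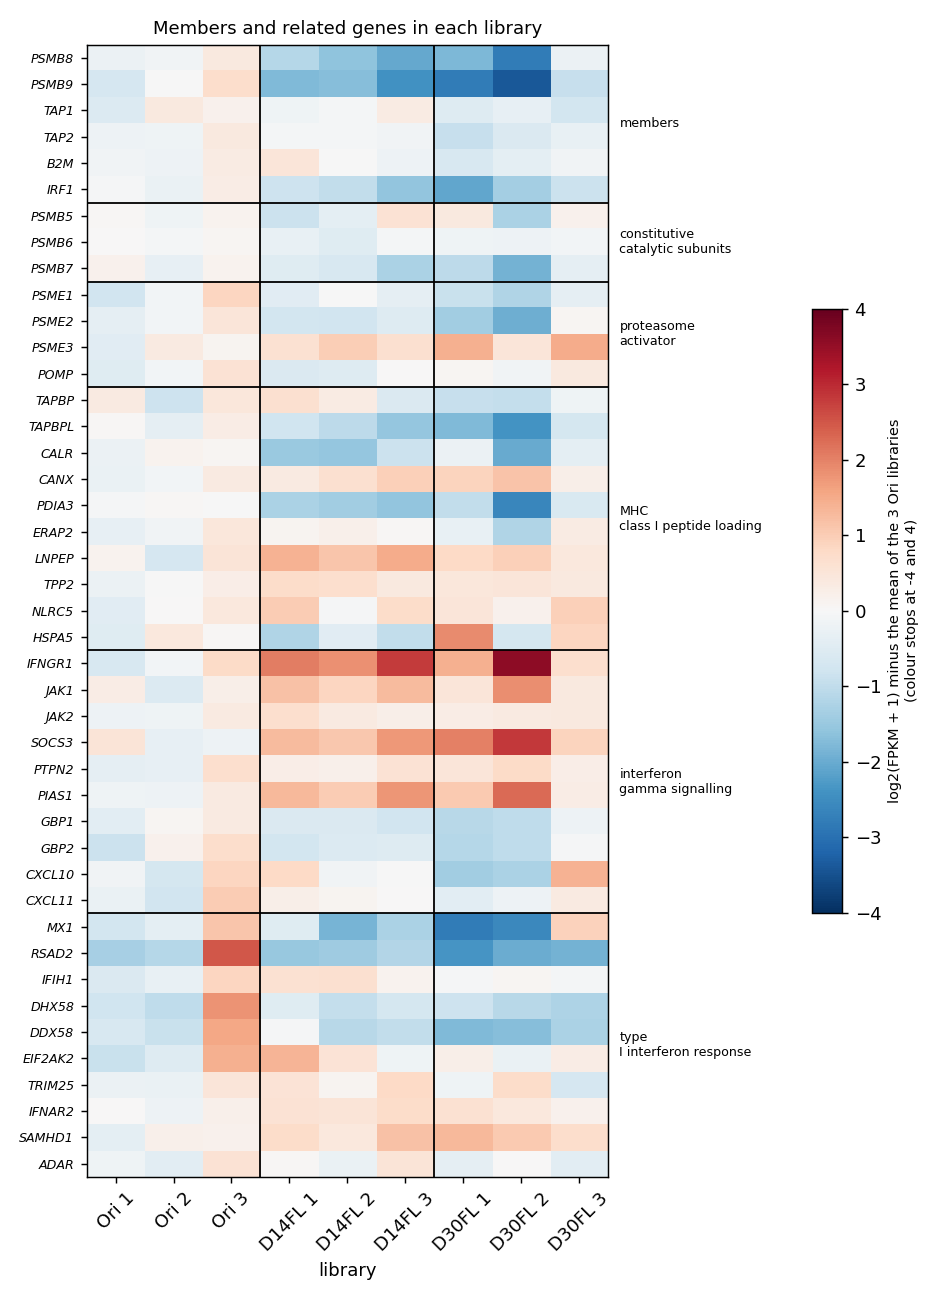
log2(FPKM + 1) minus the mean of the 3 Ori libraries (colour) for the 6 leads and the found genes of 5 related lists (rows) in each of the 9 libraries (columns). PSMB8, PSMB9 and IRF1 are below 0 in all 6 later libraries, and the type I interferon rows RSAD2, DHX58 and DDX58 are highest in Ori 3.

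No T cell, natural killer cell, phagocyte or pan-leukocyte marker was called. T and natural killer cell markers had 13 of 20 symbols found, 11 tested and 0 called in limma, with 2 lower and 1 higher at an unadjusted p under 0.05 at day 14 and 2 lower and 0 higher at day 30. Their summed level was 38.2 to 50.8 FPKM in D14FL and 27.5 to 47.8 FPKM in D30FL, against 21.6 to 62.8 FPKM in Ori, so the groups overlapped. CD3E, a chain of the T cell receptor complex, stood at 3.5, 3.8 and 6.4 FPKM in D30FL 1, 2 and 3, against 14.7, 8.1 and 10.6 FPKM in Ori 1, 2 and 3, with a relative log2 change of -1.49 (SE 0.38, adjusted p = 0.113) and no overlap. In the other direction, CD247, a further chain of that complex, stood at 1.10 to 3.06 FPKM in D30FL against 0.656 to 0.957 FPKM in Ori, and the T cell adhesion protein CD2 at 1.34 to 3.58 FPKM against 0.0629 to 1.03 FPKM, both without overlap and neither a call (adjusted p of 0.417 and 0.269). In all, 3 of the 11 lay wholly below Ori at day 30 and 2 wholly above, beside 6.14% and 20.8% of all tested transcripts. Pan-leukocyte markers had 8 of 12 found and 0 of 8 called, with 1 lower and 1 higher at an unadjusted p under 0.05 at day 14 and 1 lower and 2 higher at day 30, and summed levels of 95.6 to 119 FPKM in D14FL and 79.5 to 121 FPKM in D30FL, against 69.2 to 166 FPKM in Ori. Phagocyte markers had 11 of 15 found and 0 of 11 called, with 1 higher at an unadjusted p under 0.05 at each time, and summed levels of 111 to 159 FPKM in D14FL and 99.3 to 227 FPKM in D30FL, against 88.5 to 167 FPKM in Ori. No marker of these 3 lists was at 0 in all Ori libraries. Their part in the member values was not tested.

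Markers of the pancreas and 1 epithelial marker did move with the groups. Of 12 acinar pancreas markers, 6 were found, 2 were called higher at day 14 and 4 at day 30, and their summed level was 112 to 7443 FPKM in D14FL and 881 to 3987 FPKM in D30FL, against 14.8 to 68.6 FPKM in Ori. This was at most 0.847% of all FPKM of a library. Of the 12 found gut epithelium markers, 1 was called, CDH1, the adhesion protein of epithelial cells. Its transcript with the highest mean rose at both times, with 50.8 to 128.6 FPKM in D14FL and 67.9 to 243.5 FPKM in D30FL, against 2.6 to 5.4 FPKM in Ori. In all, 8 transcripts carry the CDH1 name, and the others were not examined. The summed epithelial level was 3115 to 6494 FPKM in D14FL and 2194 to 6146 FPKM in D30FL, against 4581 to 14063 FPKM in Ori. Most of that sum was FABP2 and FABP6, the bile acid binding protein of the ileum, and the other 10 markers summed to 1363 to 1530 FPKM in D14FL and 1218 to 1657 FPKM in D30FL, against 1019 to 1274 FPKM in Ori. FABP6 had a relative log2 change of -3.50 (SE 1.19, adjusted p = 0.154) at day 14, not a call, and overlapped Ori. Of the 12, 1 was lower and 4 higher at an unadjusted p under 0.05 at day 14, and 1 lower and 2 higher at day 30. How far the share of pancreas or epithelium in each sample bears on PSMB8, PSMB9 and IRF1 was not tested.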

How the data were processed

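Poly(A) RNA-seq libraries of 9 gut samples were analysed from the deposited table of 59331 assembled transcripts with protein annotation. Per the file headers, its values are FPKM that the authors deposited; the unit rests on that name. Per the labels' protocols, poly(A) RNA was captured on oligo(dT) beads and the libraries were amplified after digestion of the second cDNA strand. Per the submitters' processing notes, cutadapt 1.9 was used, and the mouse build mm10 is listed with no role given; the quantification tool is not given in the sources used here. Values above 0 reach down to 3.63e-118, so whole reads could not be recovered and depth is unknown.

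A transcript entered the test if 3 or more libraries had an FPKM of 1 or higher (54200 did), and the test was limma 3.58.1 (lmFit, contrasts, eBayes with trend) on log2(FPKM + 1), with 1 coefficient per group, all 9 libraries, no block and 6 residual degrees of freedom, in R 4.3.3. Benjamini-Hochberg adjustment ran over all 54200. The test was run on simulated data with the same spread for every transcript, unlike the real data. That run shows only that a known change is recovered, and not how firm the calls are here. Log2 changes on this scale understate changes of low transcripts. Log2 ratios of subunits, with 1 FPKM added to both, were tested with scipy 1.17.1 by exact permutation. pandas 2.3.3, numpy 2.4.6 and matplotlib 3.10.9 were used in Python 3.11.15.

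The members and the 18 gene lists were chosen with earlier results of these data known, as were 8 symbols left out for a protein of another name; 1 listed gene is not reported here. The named genes are all member transcripts, the called members of each list with up to 4 of the smallest p in a contrast (CD247 and the list sums without XBP1, FABP2 and FABP6 or MX1 were added after their values were seen), and the 3 nearest profiles of each lead. In the 18 lists, each gene is represented by its transcript with the highest mean, and the list sums hold only those transcripts. Other transcripts of the same gene were not examined. The labels name 3 individuals per time, so replicate numbers name different fish. All p-values rest on differences between these fish. In limma, the spread is pooled over the 3 groups and drawn toward that of other transcripts (5.73 prior beside 6 residual degrees of freedom).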

Additional observations from a re-analysis of the deposited data

How the results depend on the processing

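Relative log2 changes of D14FL and D30FL against Ori kept their direction for all 6 leads in every alternative run, while several calls did not hold. Before the median was subtracted, the day 14 log2 changes of the TAP1 and B2M leads were 0.03 and 0.09, so their direction there rests on that subtraction. The number of called transcripts for D14FL against Ori was 897 with quantile scaling, 5430 with library weights, 3335 with only the 2 groups compared and 4334 at an adjusted p under 0.1. For D30FL against Ori these numbers were 937, 7939, 507 and 5184. D30FL against D14FL gave 0 with a pseudocount of 0.01 and 0 with only the 2 groups compared. Leaving out 1 library moved the counts between 139 and 3649, between 98 and 6466, and between 0 and 2 in the 3 comparisons. The cause of these shifts was not tested.

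For PSMB9 at day 30, the change was -3.03 with a pseudocount of 0.1, -3.07 with 0.01, -2.74 with no filter, -2.75 without the trend or with only the 2 groups compared and -2.52 with transcripts summed, none a call, and it ran from -3.55 to -2.14 as 1 library was left out. PSMB9 at day 14 became a call with library weights (-2.41) and with only the 2 groups compared (-2.35), and ran from -2.61 to -2.07 with 1 library left out. PSMB8 became a call with library weights (-1.93 at day 14 and -2.08 at day 30) and, at day 14, with only the 2 groups compared (-1.98), and ran from -2.19 to -1.76 at day 14 and from -2.74 to -1.30 at day 30 with 1 library left out. IRF1 at day 30 became a call with a mean FPKM of at least 5 (-1.77), median-of-ratios scaling (-1.94), quantile scaling (-1.69) and library weights (-2.21), and ran from -2.17 to -1.48 with 1 library left out. For D30FL against D14FL, the PSMB8 change turned to 0.011 and 0.017 with pseudocounts of 0.1 and 0.01, 0.0038 with a mean FPKM of at least 5 and 0.011 with median-of-ratios scaling. With 1 library left out it ran from -0.77 to 0.66 for PSMB8, from -1.21 to 0.18 for PSMB9 and from -0.67 to 0.0201 for IRF1. PSMB5 at day 30 ran from -0.92 to 0.00731.

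The PSMB8 to PSMB5 difference was -1.24 with transcripts summed (p above the threshold) and ran from -1.60 to -1.13 with 1 library left out. The PSMB9 to PSMB6 difference was -1.70 with transcripts summed (adjusted p = 0.0714) and ran from -2.29 to -1.63. Without 1 Ori fish, the smallest p these exact permutation tests allow is 0.0714, so no ratio could pass there. Without 1 later fish it is 0.0357, which passes the adjustment over 2 ratios only where both ratios pass. Before adjustment, the PSMB9 to PSMB6 ratio was at 0.0357 in each of the runs without 1 later fish. The PSMB8 to PSMB5 ratio was at 0.0357 only without D14FL 1 and at 0.0714 without any other later fish. Those losses were therefore not fixed by the smallest p alone.

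Per the labels, replicate numbers name different fish and do not pair them. Correlations of deviations from group means ran from -0.32 to 0.08 between same-numbered libraries and from -0.09 to 0.28 between others. Deviations within a group are tied to each other, so these correlations alone cannot settle pairing. A replicate block gave 315 and 357 calls for D14FL and D30FL against Ori, and -2.75 for PSMB9 at day 30 (adjusted p = 0.079). Over the named genes and transcripts beyond the leads, 1190 of 1309 alternative values kept direction and call, and CD247 at day 30 turned to -0.0035 with library weights. Unknown depth limits what can be said of TAP1, whose values lie near 1 FPKM.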

Other observations

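Genes of class II presentation, the pathway that shows peptides from outside the cell, had 7 of 11 symbols found and 0 called in limma in D14FL or D30FL against Ori, with 0 of 7 at an unadjusted p under 0.05 at either time. Their median relative log2 change was -0.36 at day 14 and -0.66 at day 30, and all 7 lay below the median of all transcripts at day 30. IFI30, a thiol reductase of the class II pathway, was at 2922 FPKM in Ori 1 against 396 and 477 FPKM in Ori 2 and 3. The 5 class II chain transcripts, collected after the annotation had been seen, had 0 called. Of these 5, 1 was higher at an unadjusted p under 0.05 at day 14 and 0 reached it at day 30. The 5 summed to 366 to 484 FPKM in D14FL and 218 to 342 FPKM in D30FL, against 238 to 366 FPKM in Ori.

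B and plasma cell markers had 7 of 12 symbols found and 0 called, with 1 higher at an unadjusted p under 0.05 at each time. Their summed level was 196 to 257 FPKM in D14FL and 196 to 255 FPKM in D30FL, against 115 to 151 FPKM in Ori. XBP1, a transcription factor that secretory cells of other kinds also express, carried that difference: the other 6 summed to 8.84 to 33.0 FPKM in D14FL and 17.5 to 24.6 FPKM in D30FL, against 10.9 to 45.1 FPKM in Ori, and overlapped. Of the 7, 6 lay below the median of all transcripts at each time. Liver markers had 10 of 12 found and 0 called, with 3 higher at an unadjusted p under 0.05 at day 14 and 2 higher at day 30. Erythrocyte markers had 3 of 8 found and 0 called, with 2 higher at that threshold at day 14 and 3 higher at day 30. Smooth muscle markers had 4 of 8 found and 0 called, with 0 at that threshold at day 14 and 1 higher at day 30.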
